A study of Homo sapiens with 6 samples.

Results

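The genes described here code for the proteins that fold secretory and membrane proteins in the endoplasmic reticulum (ER), namely the BiP and GRP94 chaperones with their helpers, the calnexin and calreticulin cycle, the protein disulfide isomerase (PDI) family, the oxidases that supply it and the ER prolyl isomerases. They were listed by name for their known roles, and all 39 were found among the 57905 genes in the count files. The libraries came from NCI-H929, an established human multiple myeloma cell line. In each reaction, 5 μg of its total RNA was kept at 37 °C for 1 h in cleavage buffer, either with 2 μg of recombinant human ERN1/IRE1a (amino acids 467 to 977, called IRE1 from here on) in the 3 IRE1-treated samples or without it in the 3 controls, and then heated to 95 °C for 5 min. Both groups went through the same buffer, heating and RNA cleanup, and libraries were made from the poly(A)-containing part of the RNA. The series describes the 6 RNA samples as biological replicates of the line. They are samples of a single cell line, the reaction took place on purified RNA outside the cell, and only part of the IRE1 protein was present. A gene count adds all reads on a gene, so a loss of reads at the 5′ side of a cleaved mRNA lowers it only in part.

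New proteins enter the ER unfolded and are bound by BiP, an ATP-driven chaperone whose cycle is set by J-domain proteins and nucleotide exchange factors. Glycoproteins pass instead through calnexin and calreticulin, with UGGT1 returning misfolded ones for another round, while PDI family members form and rearrange disulfide bonds and prolyl isomerases turn proline bonds. Plasma cells and the myeloma cells derived from them secrete large amounts of immunoglobulin and carry much of this machinery, and when it is overloaded IRE1, a kinase and RNase of the ER membrane, splices XBP1 mRNA and cleaves other mRNAs at CNGCAG motifs in hairpin loops.

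The libraries held 19615715 to 25678499 counts on genes. TMM scaling gave factors of 0.947 for IRE1-treated replicate 1, 0.980 for replicate 2 and 0.996 for replicate 3, and of 1.02 to 1.03 for the controls, so replicate 1 stood farthest from them. BLOC1S1, a known IRE1 substrate, had a log2 fold change (IRE1-treated against control) of -1.37 (standard error of the fit, SE, 0.095, adjusted p = 1.25e-06, edgeR), and XBP1, whose gene count spans both sides of its splice sites, had -0.093 (SE 0.0436, adjusted p = 0.143, edgeR). All 8 plasma cell markers of the list used were tested, with 19668 to 29285 counts of SDC1, while MS4A1 and CD3D had at most 1 count per library and CD22, KRT19 and COL1A2 had 0. CD3E had 890 to 1063 counts although CD3D and CD2 were nearly absent. Over all genes the log2 fold change fell with the length of the longest annotated transcript (Spearman's rho = -0.52 across 14111 genes, which are not independent replicates), with rho from -0.40 to -0.49 in the single IRE1-treated libraries.

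Before treatment, the module was strongly expressed. With levels given as RPKM, counts scaled for library depth and for the kilobases of the canonical transcript, the median of the 39 genes in the controls was 73.5 RPKM, against 5.29 RPKM over all tested genes. There were 18 members at 100 RPKM or more, 20 among the 1000 highest tested genes, and 10 under 10 RPKM. In bulk RNA, fewer cells with an mRNA and less of it per cell cannot be told apart. The members took 1.52 to 1.54% of all counts on genes in the controls and 1.56 to 1.57% in the IRE1-treated libraries. Of the summed length-scaled level (longest transcripts) they took 1.03 to 1.05% in both groups.

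The highest level was that of PPIB (cyclophilin B, a prolyl isomerase), at 1306 ± 25.7 RPKM (SD, n = 3), followed by P4HB, the PDI that gave the family its name, at 969 ± 7.26 RPKM, CALR (calreticulin) at 843 ± 12.7 RPKM, HSP90B1 (GRP94) at 472 ± 12.7 RPKM and HSPA5 (BiP) at 275 ± 4.97 RPKM. The ranges of these 5 did not overlap over the 3 controls. PDIA4, HYOU1, MANF and FKBP11 came next, at means of 251 to 257 RPKM, and their ranges overlapped. PPIB, P4HB and CALR together made up 45.4% of the summed level of the module.

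This order depended on the transcript chosen. With the longest annotated transcript as the length, CALR led at 843 RPKM, and P4HB (288 ± 2.16 RPKM) and PPIB (287 ± 5.65 RPKM) could not be told apart, ahead of PDIA4 (244 ± 2.70 RPKM) and HYOU1 (239 ± 2.16 RPKM). The longest annotated transcript of PPIB has 4064 bases and its canonical one 893, and for P4HB these are 8201 and 2437 bases. The lowest 5 members were the same by either length. They were FKBP7 (0.226 ± 0.0394 RPKM, canonical), UGGT2 (0.810 ± 0.159 RPKM), ERO1B (1.06 ± 0.0299 RPKM), DNAJC10 (1.53 ± 0.132 RPKM) and FKBP14 (1.98 ± 0.243 RPKM). The place of DNAJC10 rests on its annotated lengths, 20144 bases (canonical) and 21051 (longest). Its control mean of 686 normalized counts was above those of TMX1 (586) and TMX4 (520), which ranked higher per kilobase.

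**Figure D1:**
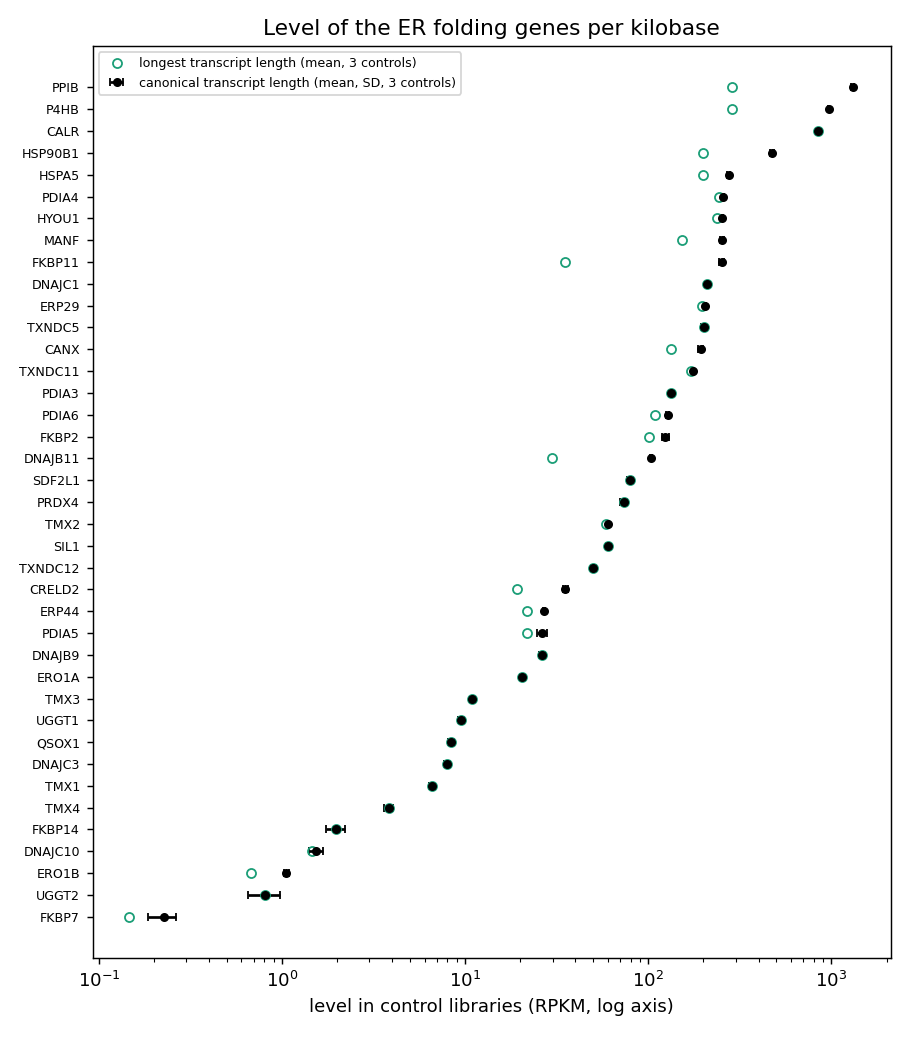
Level of each of the 39 genes in the 3 control libraries, in RPKM on a log axis, with the canonical transcript as length (filled points, mean and SD) and with the longest annotated transcript (open points, mean). PPIB, P4HB and CALR sit at the top by the canonical length and FKBP7 at the bottom, and FKBP11, PPIB, P4HB and DNAJB11 move most between the lengths.

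Some related genes of the module stood far apart in level. ERO1A, an oxidase that passes oxidizing power to PDI, stood at 19.4 times the level of its paralog ERO1B per canonical transcript (at most 19.7 in any control) and at 30.3 times per longest transcript. UGGT1, the glycoprotein folding sensor, stood at 12.1 times the level of UGGT2 (9.29 to 14.5). The soluble lectin CALR was at 4.36 times the level of its membrane-bound relative CANX, calnexin (4.26 to 4.55), and at 6.37 times per longest transcript. FKBP11 was at 128 times the level of FKBP14 per canonical transcript but at 17.9 times per longest transcript, so these ratios, apart from that of UGGT1 and UGGT2, turned on the annotation. Others were close, such as PDIA3 and PDIA6 at 133 ± 2.03 and 127 ± 2.90 RPKM.

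IRE1 treatment was then compared with the controls across all genes. Of the 39 members, 11 had higher and 5 had lower counts in the IRE1-treated samples at an adjusted p under 0.05, and 23 did not pass (edgeR's quasi-likelihood test, Benjamini-Hochberg adjustment over 14398 tested genes). Among all tested genes, 10.3% were called higher, 12.4% lower and 22.7% in either direction. All 39 members had passed the filter on low counts. The changes were small, with log2 fold changes from -0.29 to 0.43, and their median was 0.080, against 0.0045 over all tested genes. In 19 members every IRE1-treated library lay above every control and in 7 every one lay below, where 19.1% and 20% of all tested genes did so. These values are relative to the other mRNAs of a library, since TMM takes most genes as equal between the groups. The split of calls moved with the scaling, from 11 higher and 5 lower (68.8% higher) to 8 and 7 (53.3%) with library size only and to 13 and 2 (86.7%) after removing from every library its trend with transcript length and GC content. For all tested genes, the share of higher calls was 45.5%, 20.9% and 62.3% in the same order.

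**Figure D2:**
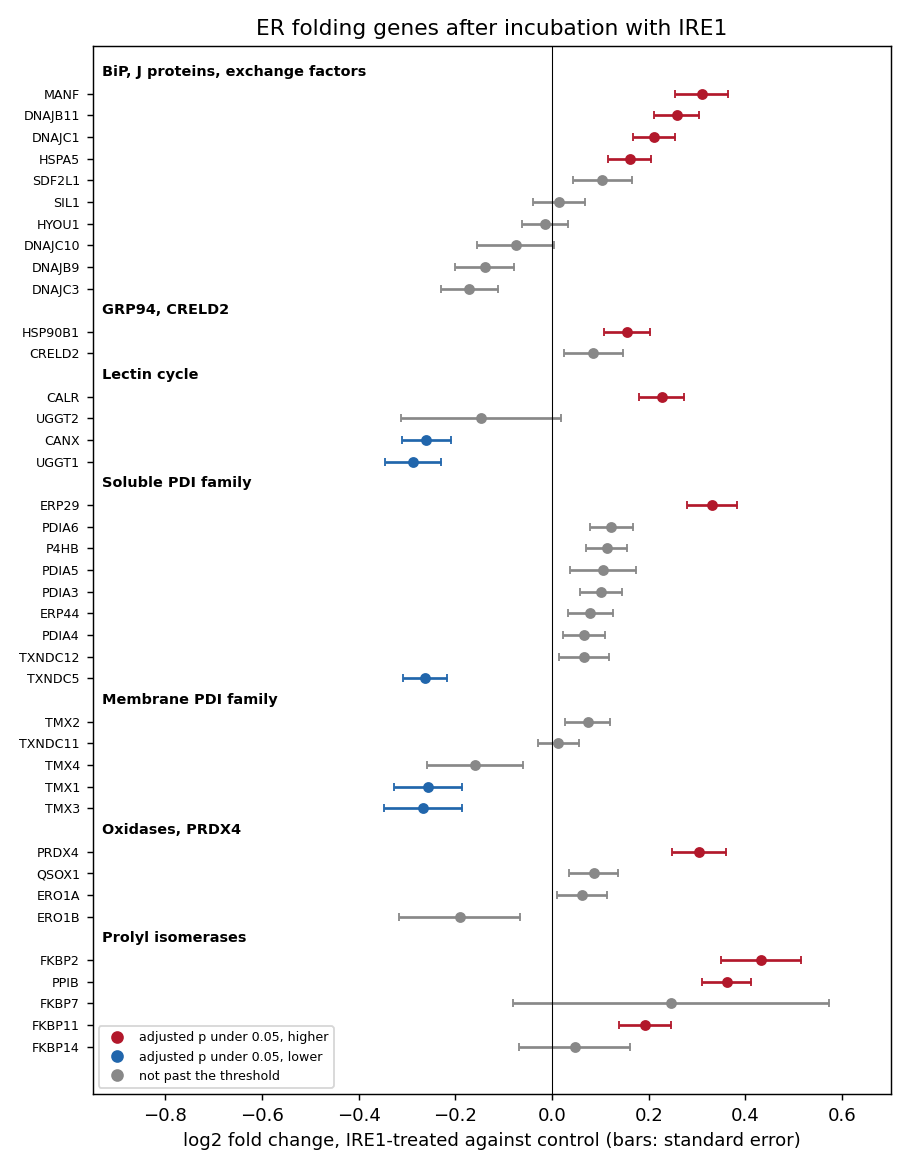
Log2 fold change of the 39 genes, IRE1-treated against control (3 libraries each), by role, with bars for the standard error of the fit. Higher calls (red) stand in every role but the membrane PDI family, and lower calls (blue) stand in the lectin cycle and in both PDI families.

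Lower counts were found for TXNDC5, UGGT1, CANX, TMX1 and TMX3. TXNDC5 (ERp46, a PDI family member with thioredoxin-like domains, ENSG00000239264, chr6:7881750-7911021, minus strand) had 12684, 13099 and 13480 normalized counts in the controls and 10883, 10710 and 11134 in the IRE1-treated samples. The groups were well apart, and the 3 treated libraries lay close to each other. Its log2 fold change was -0.26 (SE 0.0450, adjusted p = 0.000945, edgeR), and it was the only lower member past the threshold under all 16 alternatives, where its fold change lay between -0.34 and -0.24. With the length and GC trend removed it was -0.32. TXNDC5 shares exons on the same strand with the readthrough gene BLOC1S5-TXNDC5, which had 0 to 2 counts, and on the opposite strand with BMP6, which had 4.73% as many counts as TXNDC5. In all, 21 of the 39 members share exons with another annotated gene (7 on the same strand), and since the strand setting of the counting is not given in the sources used here, such reads could be divided between the genes.

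The motif that IRE1 cleaves was then looked for in the members. A search of the sense strand of each longest annotated transcript found CNGCAG in which the third base was unpaired in a predicted hairpin loop of 5 to 11 bases in 28 of the 39 members (71.8%), against 63.4% of 12225 expressed protein-coding genes. With canonical transcripts the shares were 59.0% of members and 60.1% of 12182 genes. The stricter form, CTGCAG in a loop of 7 bases, was held by 2 members, TXNDC5 and DNAJC3 (5.13%), and by 7.88% of expressed protein-coding genes. The predicted site of BLOC1S1, in its canonical transcript, has a loop of 8 bases and so is not of the stricter form. The sites that TXNDC5 and UGGT1, lower members, hold in both transcripts and the DNAJC3 site of the stricter form are shown beside 2 of XBP1, the best known substrate, with the motif in capitals.
XBP1, loop of 6 bases: ggucugcugaguCCGCAGcacucagacuac
XBP1, loop of 7 bases: cuacgugcaccuCUGCAGcaggugcaggcc
TXNDC5, loop of 7 bases: gaaaacuggaugCUGCAGacacugaacgag
TXNDC5, loop of 9 bases: ggcagaagauaaCAGCAGcaucucgaccag
UGGT1, loop of 5 bases: uuuaugugagccCUGCAGguugccuuuggc
DNAJC3, loop of 7 bases: ugaaacacuuacCUGCAGuggaaagccgag
In GRCh37 the XBP1 sites lie on the minus strand at chr22:29192126-29192155 and chr22:29192100-29192129. The TXNDC5 sites lie at chr6:7899818-7899847, in the coding part of exon 3 of 10, and at chr6:7881966-7881995, in the 3′ UTR in exon 10. The stem of the first has 3 predicted base pairs, against 7 in the XBP1 site with the same loop size. The UGGT1 site lies in the 3′ UTR, at chr2:128948423-128948452 on the plus strand in exon 41 of 41. The DNAJC3 site, added after its values were seen, lies in the 3′ UTR at chr13:96446981-96447010.

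By canonical transcripts, 2 of the 5 lower and 4 of the 11 higher members held a site. Of the lower members, TMX1 and TMX3 had none in a predicted hairpin in either transcript, TMX1 holds no CNGCAG at all, and CANX had 1 in its longest and 0 in its canonical transcript. Among the higher members, HSPA5, DNAJB11 and FKBP2 each had 1 and DNAJC1 had 2 in the canonical transcript. PPIB had 2 and MANF had 1 in the longest transcript and both had 0 in the canonical one. The site of FKBP2 (gacagaguuugaCAGCAGccugccccagaa, chr11:64010688-64010717, coding part of exon 3 of 6), printed because it has a loop of 7 bases in a gene whose counts were higher, differs from the stricter form in its motif. A predicted hairpin is a description of the sequence, and cleavage at these sites was not measured here.

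UGGT1 (ENSG00000136731, chr2:128848774-128953251, plus strand) had 2306, 2331 and 2181 normalized counts in the controls and 1770, 1786 and 2028 after IRE1 treatment. All treated libraries lay below the controls, with replicate 3 nearest to them. Its log2 fold change was -0.29 (SE 0.0584, adjusted p = 0.00281, edgeR), the lowest of the module. CANX (ENSG00000127022, chr5:179105629-179158642, plus strand), the membrane lectin that holds monoglucosylated glycoproteins, had 21832, 21228 and 20447 normalized counts in the controls and 16824, 17348 and 18858 in the treated samples, a log2 fold change of -0.26 (SE 0.0507, adjusted p = 0.00221, edgeR). The third gene of the cycle, CALR (ENSG00000179218, chr19:13049392-13055303, plus strand), went the other way. It had 35954, 35033 and 35973 normalized counts in the controls and 44187, 40543 and 40430 in the treated samples, a log2 fold change of 0.23 (SE 0.0467, adjusted p = 0.00305, edgeR). UGGT2 had -0.15 and did not pass (adjusted p = 0.577, edgeR), at 71.7 to 106 normalized counts in the controls. Of the 4 lectin cycle genes, 2 were thus lower and 1 higher, where 12.4% and 10.3% of all tested genes were.

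These genes also differ in transcript length. The canonical transcript of UGGT1 has 10761 bases, that of CANX 4915 and that of CALR 1901. With the length and GC trend removed, the log2 fold change of UGGT1 was -0.020 (adjusted p = 0.815, edgeR), that of CANX -0.060 (adjusted p = 0.314) and that of CALR 0.093 (adjusted p = 0.115), none past the threshold. With canonical lengths in the trend, CANX (-0.11, adjusted p = 0.0435) and CALR (0.12, adjusted p = 0.0385) passed and UGGT1 (-0.0010, adjusted p = 0.993) did not.

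In the membrane PDI family, 2 of 5 genes were lower and 0 higher by edgeR and by DESeq2, also at an unadjusted p under 0.05. By edgeR, 12.4% of all tested genes were lower and 10.3% higher. TMX1 (ENSG00000139921, chr14:51706880-51724373, plus strand), a transmembrane oxidoreductase that acts on membrane-bound clients, had 576, 606 and 577 normalized counts in the controls and 481, 476 and 514 in the treated samples. The groups did not overlap, and the log2 fold change was -0.26 (SE 0.0699, adjusted p = 0.0155, edgeR). TMX3 (ENSG00000166479, chr18:66340925-66382345, minus strand), another transmembrane member, had 1152, 1158 and 1145 normalized counts in the controls and 811, 959 and 1094 in the treated samples. The controls of TMX3 were nearly equal while the treated libraries spread widely, and the log2 fold change was -0.27 (SE 0.0813, adjusted p = 0.0276, edgeR). Without IRE1-treated replicate 1 the fold change of TMX3 was -0.16 (adjusted p = 0.0581, edgeR), and it passed in only 1 of the 6 fits that leave out a library. TMX1 did not pass without control replicate 1, control replicate 2 or IRE1-treated replicate 2 (adjusted p = 0.0520, 0.0904 and 0.0688, edgeR). Neither gene passed with the trend removed, at -0.17 for TMX1 and -0.15 for TMX3. TMX4 (-0.16), TMX2 (0.074) and TXNDC11 (0.013) did not pass, but TMX4 did without IRE1-treated replicate 3 (-0.30, adjusted p = 0.0088, edgeR).

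The soluble PDI family had 1 higher and 1 lower member of 9, TXNDC5 being the lower, where 10.3% and 12.4% of all tested genes were called. The higher was ERP29 (ENSG00000089248, chr12:112451152-112461253, plus strand), which has the PDI fold but lacks the active-site cysteine pair. It had 7499, 7362 and 7321 normalized counts in the controls and 10045, 8940 and 8920 in the treated samples. The treated libraries stood far above the controls, and replicate 1 was the highest. The log2 fold change was 0.33 (SE 0.0518, adjusted p = 0.000518, edgeR), and it passed under all 16 alternatives, with 0.20 when the trend was removed. A pseudogene is named after ERP29 in the annotation, so reads could be divided between them. The other 7 soluble members had log2 fold changes between 0.066 and 0.12. In 6 of these 7, PDIA6, P4HB, PDIA3, ERP44, PDIA4 and TXNDC12, the groups did not overlap, and only PDIA5 overlapped. None of the 7 passed by edgeR, and 19.1% of all tested genes had every treated library above every control. P4HB, the most abundant of them, had 52825, 52059 and 52602 normalized counts in the controls and 57943, 56802 and 55580 in the treated samples, a log2 fold change of 0.11 (SE 0.0417, adjusted p = 0.0623, edgeR) that passed in DESeq2 (adjusted p = 0.0268), as did PDIA6 (0.12, adjusted p = 0.0385), so that 3 soluble members were higher and 1 lower by DESeq2. TXNDC12 shares exons on the same strand with KTI12, which had 33.4% as many counts, and PDIA5 with SEC22A, which had 17.2% as many.

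In the BiP system, 4 of 10 genes were higher and 0 lower by edgeR and by DESeq2, with 2 lower (DNAJC3 and DNAJB9) at an unadjusted p under 0.05. By edgeR, 10.3% of all tested genes were higher and 12.4% lower. HSPA5 (ENSG00000044574, chr9:127997132-128003661, minus strand), BiP itself, had 24498, 23749 and 23746 normalized counts in the controls and 27789, 26276 and 26416 in the treated samples. The rise was small and the groups did not overlap, with a log2 fold change of 0.16 (SE 0.0443, adjusted p = 0.0165, edgeR). It was not past the threshold without any one of the controls (adjusted p = 0.0531, 0.107 and 0.0765 without replicates 1, 2 and 3, edgeR) or with library size only (0.084, adjusted p = 0.121). The annotation names a pseudogene after HSPA5.

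The other 3 higher genes of the system act on BiP, and their estimates were larger than that of BiP. MANF (ENSG00000145050, chr3:51422722-51426828, plus strand), an ER cofactor that binds BiP and slows its nucleotide exchange, had 5187, 4963 and 5146 normalized counts in the controls and 6890, 6108 and 5969 in the treated samples, a log2 fold change of 0.31 (SE 0.0550, adjusted p = 0.00121, edgeR). DNAJB11 (ERdj3, a luminal J protein that hands clients to BiP, ENSG00000090520, chr3:186285192-186303589, plus strand) had 3823, 3748 and 3750 in the controls and 4679, 4441 and 4417 in the treated samples, 0.26 on the log2 scale (SE 0.0461, adjusted p = 0.00126, edgeR). DNAJC1 (ERdj1, a membrane J protein found at the ribosome, ENSG00000136770, chr10:22045477-22292698, minus strand) had 9857, 9707 and 9752 in the controls and 11551, 11344 and 11057 in the treated samples, 0.21 on the log2 scale (SE 0.0436, adjusted p = 0.00301, edgeR). In MANF, DNAJB11 and DNAJC1 every treated library lay above every control. Whether their changes exceed that of HSPA5 was not tested. MANF and DNAJB11 passed under all 16 alternatives, but MANF was at 0.15 with the trend of the longest transcripts removed and at 0.14 with that of the canonical ones, while DNAJC1 did not pass with the trend of the longest transcripts removed (0.097, adjusted p = 0.0991, edgeR). TBCCD1 on the opposite strand shares exons with DNAJB11 and had 4.53% as many counts.

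The rest of the BiP system did not pass. DNAJC3 (p58IPK, a J protein that holds unfolded chains) came nearest, with 1034, 988 and 957 normalized counts in the controls and 918, 854 and 877 in the treated samples. Its groups did not overlap, and its log2 fold change of -0.17 (SE 0.0597) had an adjusted p of 0.0504 (edgeR). DNAJB9 (ERdj4, which brings BiP back to IRE1) had -0.14 and DNAJC10 (ERdj5, a reductase) had -0.075. DNAJC10 turned to 0.32 with the trend removed (adjusted p = 0.0025, edgeR), and its annotated canonical transcript of 20144 bases is the longest of the module. SDF2L1, a partner of DNAJB11, had 0.10, and the nucleotide exchange factors SIL1 and HYOU1 had 0.015 and -0.015. HYOU1, with 25756, 25856 and 26202 normalized counts in the controls and 27305, 24964 and 24763 in the treated samples, had a 95% interval of the log2 fold change from -0.12 to 0.086.

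GRP94, the ER member of the HSP90 family, was higher. HSP90B1 (ENSG00000166598, chr12:104323885-104347709, plus strand) had 30109, 28971 and 28598 normalized counts in the controls and 34356, 31608 and 31672 in the treated samples. The lowest treated library lay just above the highest control, and the log2 fold change was 0.16 (SE 0.0473, adjusted p = 0.0277, edgeR). It was the called member with the highest adjusted p, and it did not pass without control replicate 1, 2 or 3, without IRE1-treated replicate 2 or with library size only (adjusted p = 0.0533 to 0.171, edgeR). CRELD2, a stress-induced ER protein, had 0.085 and did not pass (adjusted p = 0.352, edgeR). Its exons overlap those of ALG12 on the opposite strand, which had 57.9% as many counts.

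Prolyl isomerases had the highest share of higher calls, 3 of 5, with 0 lower by edgeR and by DESeq2, also at an unadjusted p under 0.05. Among all tested genes, 10.3% were higher and 12.4% lower by edgeR. The canonical transcripts of the higher ones, PPIB, FKBP2 and FKBP11, have 893, 574 and 691 bases. Those of FKBP7 and FKBP14 have 2876 and 4978, so role and length cannot be told apart here. PPIB (ENSG00000166794, chr15:64447939-64455333, minus strand) had 26068, 25385 and 26384 normalized counts in the controls and 35290, 33507 and 31170 in the treated samples. It had the lowest adjusted p of the module and stood at 128% of the control mean, with a log2 fold change of 0.36 (SE 0.0497, adjusted p = 0.000232, edgeR) that passed under all 16 alternatives, the lowest being 0.19 with the canonical trend removed. FKBP2 (ENSG00000173486, chr11:64008475-64011604, plus strand), a small luminal isomerase, had 1512, 1656 and 1577 in the controls and 2532, 1947 and 1933 in the treated samples. Its log2 fold change of 0.43 (SE 0.0833, adjusted p = 0.00209, edgeR) was the highest of the module, and it was 0.30 without IRE1-treated replicate 1, 0.25 with the trend removed and 0.24 with the canonical trend removed. FKBP11 (ENSG00000134285, chr12:49315301-49320257, minus strand), an isomerase abundant in secretory tissues, had 3878, 3724 and 3980 in the controls and 4717, 4389 and 4130 in the treated samples. Its treated replicate 3 lay near the controls, and its log2 fold change was 0.19 (SE 0.0538, adjusted p = 0.0181, edgeR). FKBP11 did not pass without control replicate 1 or 2 or IRE1-treated replicate 2, and with the trend of canonical transcripts removed it was 0.014 (adjusted p = 0.871, edgeR). FKBP7 (0.25) and FKBP14 (0.047) did not pass, with standard errors of 0.326 and 0.115. FKBP7 had only 12.6 to 20.0 normalized counts per library.

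Of the oxidases, PRDX4 was the higher one of 4 genes, where 10.3% of all tested genes were called higher. PRDX4 (ENSG00000123131, chrX:23682379-23704514, plus strand), an ER peroxiredoxin that uses hydrogen peroxide to make disulfides, had 1614, 1593 and 1481 normalized counts in the controls and 2046, 1916 and 1835 in the treated samples. The groups were apart, and the log2 fold change was 0.30 (SE 0.0563, adjusted p = 0.00159, edgeR). It passed in all 6 fits that leave out a library and not with the trend removed (0.14, adjusted p = 0.101, edgeR), and a pseudogene is named after it. QSOX1, a sulfhydryl oxidase of the late secretory pathway, had 0.086, ERO1A 0.062 and ERO1B -0.19, and none passed. QSOX1 and ERO1A passed with the trend removed, at 0.30 and 0.19.

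**Figure D3:**
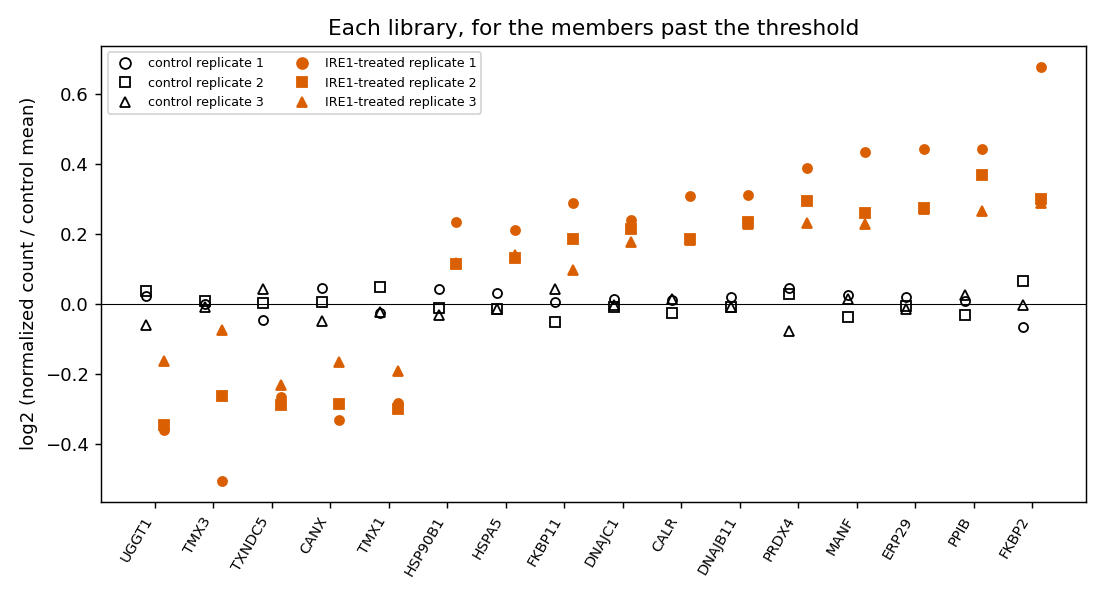
Normalized count of each library against the control mean, on a log2 scale, for the 16 members past the threshold, with controls in black and IRE1-treated libraries in orange. The groups do not overlap in any of the 16, and treated replicate 1 (orange circles) is farthest from 0 in 14 of them.

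IRE1-treated replicate 1 was the library farthest from the control mean in 14 of the 16 called members, replicate 2 in 2 and replicate 3 in 0. Of the 16 called members, 11 passed in each of the 6 fits that leave out a library, and 6 (PPIB, ERP29, FKBP2, MANF, DNAJB11 and TXNDC5) passed under all 16 alternatives. None of the 16 changed direction under any alternative. Without IRE1-treated replicate 1, 14 members were higher and 5 lower. Without control replicate 1 or control replicate 2 there were 8 higher and 3 lower, and without IRE1-treated replicate 3 there were 12 higher and 7 lower.

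The fold changes of the members followed transcript length. Spearman's rho between log2 fold change and length was -0.71 over the 39 members with the canonical transcript and -0.41 with the longest one, against -0.58 over 14026 and -0.52 over 14111 tested genes. These are descriptions across genes measured in the same 6 libraries. Of the 22 members with a canonical transcript shorter than the median of tested genes (3050 bases), 10 were higher and 1, TXNDC5, was lower, with a median log2 fold change of 0.14. Of the 17 longer ones, 1, HSPA5, was higher and 4, UGGT1, CANX, TMX1 and TMX3, were lower, with a median of -0.075. Over all tested genes of any length, 10.3% were called higher and 12.4% lower. The calls over all tested genes were not split by length in this way. The part of transcript length in the fold change of each gene was not tested beyond the removal of the trend.

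**Figure D4:**
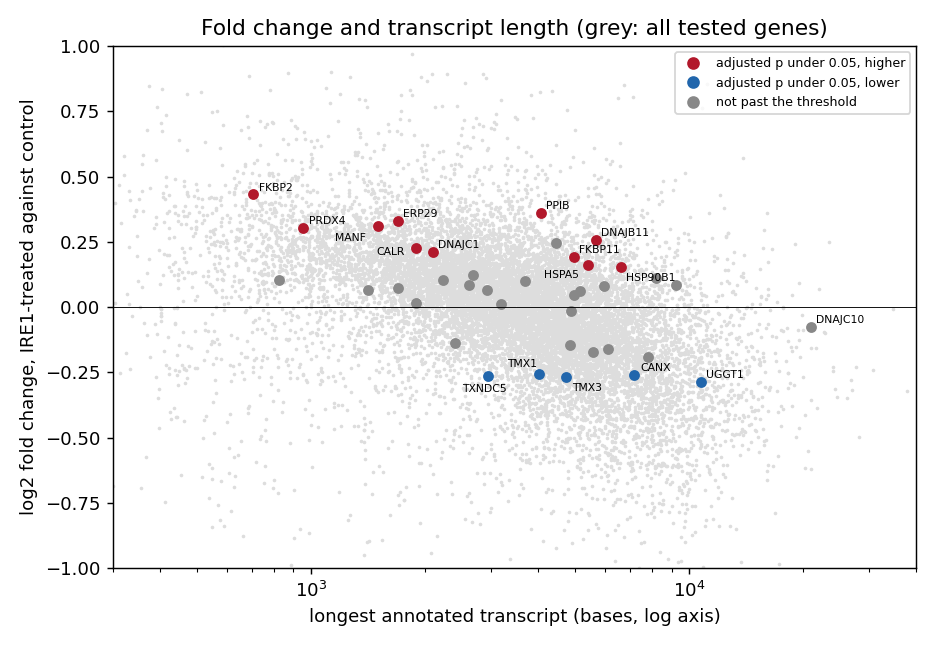
Log2 fold change against the length of the longest annotated transcript (log axis) for all tested genes (grey) and the 39 members (coloured by call). Genes outside the axes are not drawn. Short members such as FKBP2, PRDX4 and MANF lie above 0 and long ones such as UGGT1 and CANX below, and TXNDC5 lies low for its length.

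After removal of the trend with length and GC content, 13 members were higher and 2 lower. The higher ones included HSP90B1 (0.34), HSPA5 (0.28) and DNAJB11 (0.41), whose fold changes grew, and P4HB (0.30, adjusted p = 0.000284, edgeR), which had not passed before. The lower ones were TXNDC5 (-0.32) and DNAJB9 (-0.18, adjusted p = 0.0423, edgeR). With canonical transcripts in place of the longest, a choice made after the data were seen, 14 were higher and 2 lower, and HSP90B1 was at 0.15, DNAJB11 at 0.15 and P4HB at 0.049, so the larger values of these 3 went with the long annotated transcripts.

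**Figure D5:**
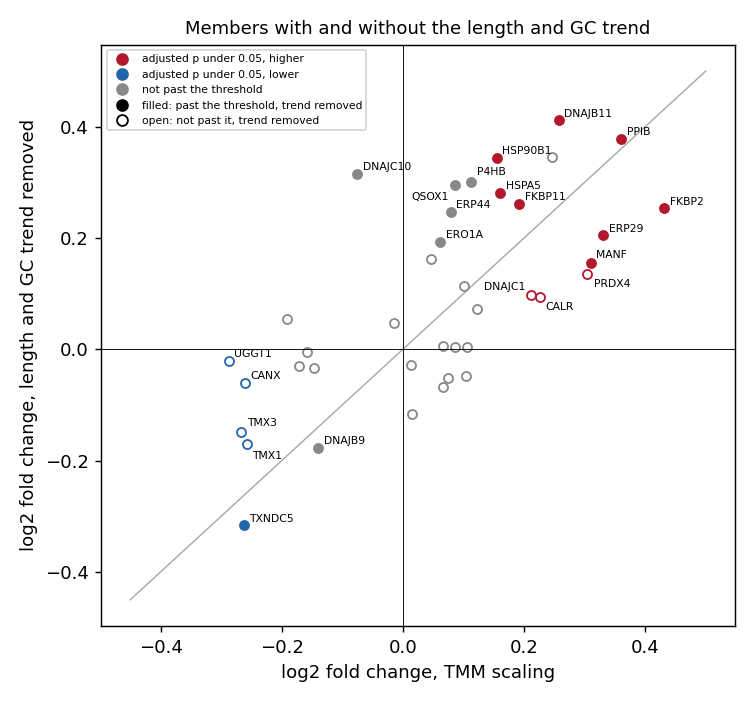
Log2 fold change of the 39 members with TMM scaling (horizontal) and with the length and GC trend of the longest transcripts removed (vertical), with the line of equal values. TXNDC5 keeps its low value, UGGT1 and CANX come close to 0, and DNAJC10 goes from below to above 0.

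As shares of the summed length-scaled level of the module (canonical transcripts), the ranges of controls and treated libraries did not overlap in 6 of the 7 roles. The prolyl isomerases went from 24.3 to 24.9% in the controls to 26.4 to 28.2% in the treated libraries, and the oxidases from 1.44 to 1.55% to 1.56 to 1.58%. The soluble PDI family went from 29.0 to 29.2% to 26.7 to 28.0%, the membrane PDI family from 3.70 to 3.81% to 3.16 to 3.44%, and the lectin cycle from 15.2 to 15.3% to 14.6 to 15.1%. The share of the BiP system was lower in the treated libraries, 18.1 to 18.3% against 18.4 to 18.5%, although 4 of its genes were called higher and 0 lower (edgeR). GRP94 and CRELD2 overlapped, at 7.24 to 7.55% and 7.15 to 7.29%. The shares sum to a fixed total, so a rise in one role lowers the others. That of the soluble PDI family fell although 8 of its 9 members had log2 fold changes above 0. The shares also depend on the lengths used. By raw counts, without length, the prolyl isomerases held 9.56% of the module in the controls, against 24.5% here. Whether the ranges stay apart with other lengths was not tested.

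The wider ER folding machinery was described with 40 further genes, of which 35 were tested, with 7 higher and 1 lower. Among all tested genes, 10.3% were called higher and 12.4% lower. The median log2 fold change of the 35 was 0.058, against 0.0045 over all tested genes. The highest among the genes past the threshold were CNPY2, a small saposin-like ER protein, at 0.34 (SE 0.0784, adjusted p = 0.00645, edgeR), MZB1, a plasma cell cochaperone of GRP94, at 0.31 (SE 0.0673, adjusted p = 0.00401), and SELENOM, a selenoprotein with a redox fold, at 0.28 (SE 0.0587, adjusted p = 0.00313). The lower one was DNAJC16, at -0.33 (SE 0.0901, adjusted p = 0.0148, edgeR). The canonical transcripts of CNPY2, MZB1 and SELENOM have 1450, 925 and 694 bases, and that of DNAJC16 has 6034. The counts of higher calls moved between 2 (without control replicate 2) and 8 when a library was left out. Among 6 sensors and factors of the unfolded protein response, ERN1, the gene of IRE1 itself, had -0.28 (adjusted p = 0.00117, edgeR), EIF2AK3 (PERK) -0.20 (adjusted p = 0.0497) and ATF4, after which 4 pseudogenes are named, 0.23 (adjusted p = 0.00281). The canonical transcripts of ERN1, EIF2AK3 and ATF4 have 7895, 4536 and 1419 bases.

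The promoters of the members were then searched, since this set of genes is known for elements that stress-activated factors bind. RefSeq promoters (GRCh38.p14, 250 bases before to 50 after the start) were matched for 36 of the 39 members, all but DNAJC1, PDIA3 and FKBP14. The ER stress response element (ERSE, CCAAT and CCACG with 9 bases between them, on either strand), a site for NF-Y and ATF6, was in 7 of the 36 (19.4%), CALR, CANX, CRELD2, ERO1B, HSP90B1, HSPA5 and PDIA6, against 25 of 27305 genes with a promoter (0.0916%). ERSE-II (ATTGG and CCACG with 1 base between them) was in HYOU1 and SDF2L1, against 0.0696% of genes with a promoter. The core TGACGTGG of the unfolded protein response element, bound by spliced XBP1 and ATF6, was in DNAJC10, HYOU1, TXNDC11 and TXNDC5 (11.1%), against 0.927%, and in HYOU1 it overlaps an ERSE-II. Sites of members described above are shown with the fixed bases of the element in capitals.
HSPA5 (chr9:125241386-125241414, minus strand): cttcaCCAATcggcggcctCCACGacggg
HSP90B1 (chr12:103930316-103930344, minus strand): acccaCCAATcgcgccgcaCCACGcaccc
CALR (chr19:12938379-12938407, minus strand): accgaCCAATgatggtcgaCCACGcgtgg
CANX (chr5:179698773-179698801, plus strand): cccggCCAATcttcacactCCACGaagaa
SDF2L1 (chr22:21642105-21642133, minus strand): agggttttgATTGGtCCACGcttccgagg
TXNDC5 (chr6:7910151-7910180, minus strand): gcactggcggcTGACGTGGcgctcggcggc
The site of HSPA5 lies 66 bases before the start, and HSP90B1 holds an ERSE at 89 bases, shown here, and another at 194 bases before it. Of the 7 members with an ERSE, HSPA5, HSP90B1 and CALR were higher after IRE1 treatment, CANX was lower and CRELD2, ERO1B and PDIA6 did not pass. A match describes the letters of the window, and binding was not measured here. The promoter search was not among the planned results. Since this set of genes is already known for such elements, the higher shares describe the list and are not a test of it. The calls compare purified RNA incubated outside the cell, so they do not measure the activity of these promoters.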

How the data were processed

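RNA-seq libraries of NCI-H929 total RNA incubated with IRE1 (3) or without it (3) were analysed. Libraries were prepared with a stranded poly(A) kit and each was sequenced in a lane of its own, so lane and sample cannot be told apart. The authors trimmed the reads (Cutadapt 1.12), aligned them to GRCh37 with Ensembl 87 (STAR 2.5.3a) and counted them per gene (HTSeq 0.6.1p1), and they deposited raw counts. The strand and overlap settings of the counting are not given in the sources used here. Another table deposited by the authors holds normalized CPM (edgeR 3.24.3 in their notes) and entered only an alternative. The 5 summary lines, 21.4 to 23.2% of each file, were left out.

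Counts were fitted with edgeR 4.0.16 (R 4.3.3), after filterByExpr (14398 genes kept out of 24945 that had any count), with TMM scaling, the quasi-likelihood test and Benjamini-Hochberg adjustment at 0.05, without covariates. This differs from the study's exon test, since exon counts were not used here. Normalized counts are at the scale of the mean library (22239981 counts). Gene names, lengths and positions came from GENCODE 44 on GRCh37, hairpins from ViennaRNA 2.7.2 in windows of 15 bases on either side of the motif. In simulated data for this comparison (14398 genes), 89 of 100 genes changed 2-fold and 54 of 100 changed 1.3-fold were recovered and 7 unchanged genes were called. The simulated counts held no trend with transcript length or GC content and no outlying library. They therefore do not give the rate of false calls in the real libraries. The p-values set the difference between the groups against the spread between the 3 samples of each, all from a single cell line.

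The alternatives were DESeq2 1.42.0, upper quartile scaling, scaling by library size only, no filter, at least 10 counts in every library, limma 3.58.1 on log2 of the deposited CPM (pseudocount 1), a replicate block, removal of each library's loess trend (span 0.5) on transcript length and GC, alone and with the block, each library left out in turn, and, added after the data were seen, the same trend and the levels with canonical transcripts. Genes without a length (287 tested) kept their counts in the trend fits. Named with values in every library are the members past the threshold. P4HB, HYOU1 and DNAJC3 were added after their values were seen. The members, the other lists and these tests were chosen with earlier results of these data known. Protein sequences were not analysed here.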

Additional observations from a re-analysis of the deposited data

How the results depend on the processing

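The counts of members past the threshold kept within 1.5 times of 11 higher under every alternative, but the genes changed. With the length and GC trend of the longest transcripts removed, CALR, DNAJC1 and PRDX4 no longer passed. DNAJC10, P4HB, ERP44 (0.25, adjusted p = 0.0055, edgeR), ERO1A and QSOX1 then passed as higher. The 5 lower members became 2 in each of the 3 fits with a length and GC trend removed, and 3 to 7 when a library was left out. For the other folding genes, the 7 higher became 3 with library size only, 4 with the replicate block, 3 with the canonical trend removed and 2 to 8 when a library was left out. The 1 lower became 2 with library size only, 3 without a filter, 0 (edgeR) in the 3 trend fits and 0 to 3 when a library was left out. Over all genes, the 1489 higher became 684 with library size only, 934 with the canonical trend removed and 638 to 2091 when a library was left out, and the 1781 lower became 753, 639 (with the block) and 590 (canonical) in the trend fits and 972 to 2221. The median of the members, 0.080, was 0.0037 with library size only, 0.068 without a filter, 0.074 by limma on CPM, 0.072 with the trend removed, 0.072 with the block as well, 0.049 with the canonical trend removed and 0.067 to 0.090 when a library was left out. With a loop of exactly 7 bases, 9 members in place of 28 held a hairpin site.

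Log2 fold changes turned sign in 16 members, none called. With library size only these were ERO1A (-0.013), FKBP14 (-0.026), PDIA4 (-0.0091), SIL1 (-0.062), TMX2 (-0.0016), TXNDC11 (-0.063) and TXNDC12 (-0.0096). With the trend removed, alone and with the replicate block, they were DNAJC10 (0.32, 0.32), ERO1B (0.054, 0.058), HYOU1 (0.047, 0.046), SDF2L1 (-0.048, -0.051), SIL1 (-0.12, -0.12), TMX2 (-0.052, -0.053), TXNDC11 (-0.029, -0.029) and TXNDC12 (-0.068, -0.069). With the canonical trend they were CRELD2 (-0.055), DNAJC10 (0.32), DNAJC3 (0.010), HYOU1 (0.077), PDIA5 (-0.0015), SDF2L1 (-0.051), SIL1 (-0.095), TMX2 (-0.041), TMX4 (0.031), TXNDC12 (-0.059) and UGGT2 (0.0061). Leaving out a library gave -0.029 to 0.16 for FKBP14, -0.058 to 0.016 for HYOU1, -0.034 to 0.060 for SIL1 and -0.28 to 0.0074 for UGGT2. The cause was not tested.

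Same-numbered samples did not deviate together (r = -0.04, -0.0050 and -0.11 for replicates 1, 2 and 3 over 14398 genes). Samples with different numbers had r from -0.060 to 0.094. Deviations from means of 3 libraries cannot exclude that same-numbered samples share a source. With the replicate number as a block, 9 members were higher (HSPA5 and HSP90B1 no longer passed) and 5 lower, and 1117 genes higher and 1496 lower. Low counts limited FKBP7 and UGGT2, whose fold changes had standard errors of 0.326 and 0.165.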
